A study of Mus musculus with 8 samples.

Results

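The 557 anchors described here are regions of the mouse genome whose contact level followed the allele of an interval of chromosome 13, although they lie on other chromosomes. They were chosen from 11056 anchors that met the conditions on chromosome and counts, of 30044 anchors in the series. The assay was HiChIP for the histone mark H3K27ac in embryonic stem cells. In HiChIP, DNA fragments that touch in the nucleus are ligated to each other, and those that carry the mark are then enriched with an antibody, so a count is a read pair between 2 sites of which at least 1 lay in acetylated chromatin. An anchor is 1 end of such a contact, here a union of neighbouring bins of 5 kb. Its level is the sum of all contacts that touch it, with contacts inside the anchor counted once, in counts per 1000000 (CPM) of the library total off chromosome 11. Anchors on chromosomes 11, 13, X and Y and anchors with fewer than 200 counts over all libraries were left out. An anchor was kept where all 4 libraries carrying the D2 allele lay above, or all lay below, the 4 carrying the B6 allele. The interval allele therefore chose the members, and every difference between alleles in them is a description with no test.

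There were 4 lines with 2 technical replicates each, and each line was 1 cell line grown with serum, LIF, PD0325901 and CHIR99021. B6 was a C57BL/6J line (B6 5-1), with the B6 allele of the interval. D2 was a DBA/2J line (D2 5-5), with the D2 allele. B6-13D2 (QJ 6-1) was the congenic B6.D2-(rs30079041-rs51756099)/Bakr, with the C57BL/6J background and the D2 allele. D2-13B6 (XE 2-4) was the reciprocal congenic on the DBA/2J background with the B6 allele, labelled D2.B6-(rs29224292-rs13469455)/Bakr on the samples and with rs51756099 as the second marker in the series text. The D2 allele was thus carried by D2 and B6-13D2, and the B6 allele by B6 and D2-13B6. With 1 cell line for each genotype, the allele and anything else particular to these lines cannot be told apart. The replicates are technical, so tests measure only the spread between libraries of 1 line.

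Acetylation of lysine 27 on histone H3 marks active promoters and enhancers. Mouse chromosome 13 is known for a cluster of genes for KRAB zinc finger proteins. Proteins of this family bind DNA, often inside retrotransposons, and recruit TRIM28 and the methyltransferase SETDB1, which lay down repressive H3K9 methylation. The anchors described here lie on other chromosomes than the interval, and what links them to it was not tested. Levels of whole anchors do not separate a change of acetylation from a change of contact frequency, and fewer cells of a type cannot be told apart from less signal per cell.

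The letters below show the 300 bases with the most CpG in 5 anchors with gaps among the widest on their side whose windows lie outside annotated exons. They are those near Aass and between genes on chromosome 4 (higher with the D2 allele) and at Boll, Obox6 and Fam241a (lower). CpG is in capitals. The letters are those of the C57BL/6J reference (RefSeq, GRCm38.p6), and the D2 letters were not used here.
3′ of Aass (chr6:23066401-23066700, plus strand): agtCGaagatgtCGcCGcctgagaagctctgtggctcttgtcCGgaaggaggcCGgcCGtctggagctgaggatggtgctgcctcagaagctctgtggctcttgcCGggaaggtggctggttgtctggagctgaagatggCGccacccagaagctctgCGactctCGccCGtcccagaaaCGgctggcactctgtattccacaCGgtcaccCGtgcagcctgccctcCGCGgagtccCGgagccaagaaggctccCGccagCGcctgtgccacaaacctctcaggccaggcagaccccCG
chromosome 4, between genes (chr4:22148365-22148664, plus strand): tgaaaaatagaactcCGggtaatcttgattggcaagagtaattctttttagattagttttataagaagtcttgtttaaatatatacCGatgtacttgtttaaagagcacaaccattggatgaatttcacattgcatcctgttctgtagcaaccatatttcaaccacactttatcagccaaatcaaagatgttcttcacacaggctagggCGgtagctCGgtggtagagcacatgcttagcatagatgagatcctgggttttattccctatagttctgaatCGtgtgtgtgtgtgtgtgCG
Boll intron (chr1:55352059-55352358, plus strand): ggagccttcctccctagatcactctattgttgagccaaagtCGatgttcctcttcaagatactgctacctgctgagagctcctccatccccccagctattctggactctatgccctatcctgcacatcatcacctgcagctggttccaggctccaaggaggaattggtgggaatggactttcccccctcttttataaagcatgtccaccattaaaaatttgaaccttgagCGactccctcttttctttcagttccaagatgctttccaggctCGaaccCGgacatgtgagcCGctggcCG
between Obox6 and Crx (chr7:15848938-15849237, plus strand): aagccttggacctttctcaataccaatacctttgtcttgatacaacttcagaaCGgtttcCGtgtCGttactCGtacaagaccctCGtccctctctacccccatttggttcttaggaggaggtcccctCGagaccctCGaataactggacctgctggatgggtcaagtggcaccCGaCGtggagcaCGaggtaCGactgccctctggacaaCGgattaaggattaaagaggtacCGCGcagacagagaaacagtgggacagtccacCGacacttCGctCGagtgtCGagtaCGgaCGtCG
3′ of Fam241a (chr3:127867008-127867307, plus strand): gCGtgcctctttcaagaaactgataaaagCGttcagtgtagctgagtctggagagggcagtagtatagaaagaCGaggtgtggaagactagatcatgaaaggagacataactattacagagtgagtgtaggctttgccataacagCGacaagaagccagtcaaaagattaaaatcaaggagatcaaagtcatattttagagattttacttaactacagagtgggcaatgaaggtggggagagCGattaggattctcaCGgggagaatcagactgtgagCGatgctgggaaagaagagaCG

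The window 3′ of Aass held 20 CpG and was masked as repeat over 100% of its length. That between Obox6 and Crx held 21 CpG and was masked over 73.0%. The window in Boll was masked over 89.0%, that on chromosome 4 over 8.67% and that 3′ of Fam241a over 0%, with 6, 6 and 8 CpG. Over whole anchors, the masked share was 38.7% near Aass, 26.9% on chromosome 4, 49.5% at Boll, 54.5% at Obox6 and 20.1% at Fam241a. Over all members the median masked share was 28.2%, beside 27.5% in all 11056 anchors. The placement of reads that match in several places is not given in the sources used here, which bears on repeats and on the Obox and Gbp gene families.

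The 250 bases before the annotated start are given for 4 members at a gene start, 3 of them with a wide gap and Zfp42 as the member from the list of naive pluripotency genes. Motifs searched on both strands are in capitals, namely the GC box (GGGCGG), the CCAAT box (CCAAT), the TATA box (TATAAA) and the E-box CACGTG. They occur in this window of 32.7%, 33.8%, 12.4% and 6.02% of 32851 RefSeq promoters. No match shown overlaps another.
Twistnb (chr12:33429374-33429623, plus strand): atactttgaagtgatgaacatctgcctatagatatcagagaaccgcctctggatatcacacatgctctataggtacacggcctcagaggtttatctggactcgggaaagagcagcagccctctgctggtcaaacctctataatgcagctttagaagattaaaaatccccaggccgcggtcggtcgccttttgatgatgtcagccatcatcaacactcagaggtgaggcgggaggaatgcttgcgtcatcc
Lpar6 (chr14:73237641-73237890, plus strand): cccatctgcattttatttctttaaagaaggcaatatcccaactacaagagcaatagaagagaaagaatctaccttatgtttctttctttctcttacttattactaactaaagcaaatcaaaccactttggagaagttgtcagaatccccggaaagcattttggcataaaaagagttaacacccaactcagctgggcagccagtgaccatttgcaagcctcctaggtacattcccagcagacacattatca
Gm4262 (chr16:11008648-11008897, plus strand): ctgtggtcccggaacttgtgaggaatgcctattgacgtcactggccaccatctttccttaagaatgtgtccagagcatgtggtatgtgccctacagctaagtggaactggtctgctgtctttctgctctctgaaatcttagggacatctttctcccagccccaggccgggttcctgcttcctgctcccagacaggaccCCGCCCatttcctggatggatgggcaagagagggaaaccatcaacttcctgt
Zfp42 (chr8:43307010-43307259, minus strand): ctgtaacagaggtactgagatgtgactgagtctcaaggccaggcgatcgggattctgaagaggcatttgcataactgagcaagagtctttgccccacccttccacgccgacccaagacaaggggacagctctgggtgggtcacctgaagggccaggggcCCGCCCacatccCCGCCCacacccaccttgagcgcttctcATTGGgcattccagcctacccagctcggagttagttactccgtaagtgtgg

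None of the 4 motifs lay in the windows of Twistnb and Lpar6. The window of Gm4262, a long non-coding RNA inside Litaf, held a GC box, and that of Zfp42 held GC boxes and a CCAAT box. A match is a description of letters and not of a bound site.

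Of the 11056 anchors, 557 were separated by the interval allele, which is 5.04%. With the D2 allele, 266 were higher and 291 were lower. The design holds 2 other divisions of the 4 lines into pairs, measured the same way. The division by background genome separated 2430 anchors (22.0%), 1108 higher and 1322 lower with the D2 background. The division of congenic from parental lines separated 464 (4.20%), with 110 higher and 354 lower in the congenic lines. The interval thus separated about as many anchors as the division by kind of line, for which the design names no shared genotype. The majority direction turned with the scaling, since with chromosome 11 in the totals 328 of 550 were higher and 222 lower (59.6% higher, against 47.8%). No test was made between these counts.

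**Figure D1:**
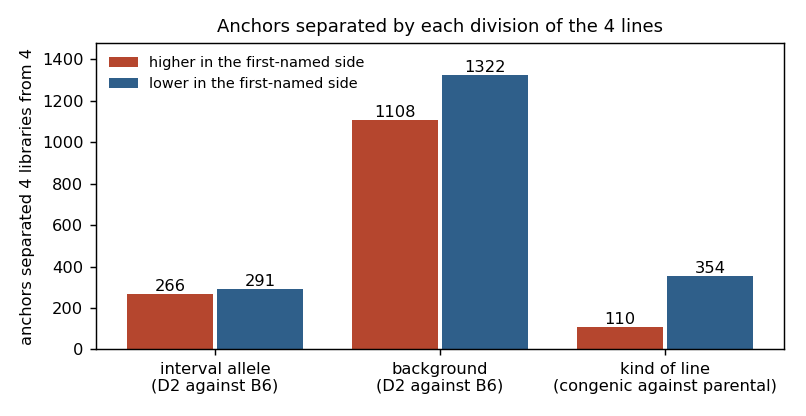
Bars show the number of anchors, of 11056, in which all 4 libraries on one side lay above (red) or below (blue) all 4 on the other, for the 3 divisions of the 4 lines into pairs. The background division holds 1108 and 1322 anchors, the interval division 266 and 291, and the division by kind of line 110 and 354.

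Most members differed little in size. Size here is the absolute log2 ratio of the allele means in CPM, without a pseudocount. In the higher members it was at least 0.119 and at most 1.32, with a median of 0.401. In the lower members the range was 0.125 to 1.83 and the median 0.404. A difference over 1 on this scale was seen in 2 higher and 8 lower members. The members near the edges of the rule show how thin it is. The member with the narrowest gap, at Eloc and Tmem70 on chromosome 1, had 146 and 170 CPM in D2 and 164 and 180 in B6-13D2, against 127 and 146 in B6 and 107 and 132 in D2-13B6, so that 2 libraries of opposite allele had nearly the same value. The anchor closest to separation from outside, in Rab3b on chromosome 4, had 57.6 and 62.4 CPM in D2, 58.9 and 55.9 in B6-13D2, 64.6 and 76.8 in B6 and 62.4 and 64.4 in D2-13B6. The member with the fewest counts, in Ldlrad4, had 200, and the separated anchor just below the limit, at Crip1 and Crip2, had 199.

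Deeper anchors were members more often. The share was 3.46% among anchors with 200 to 312 counts and 6.80% among those with 1016 counts or more, and members had a median of 665 counts against 509 in all. Starts of protein-coding genes held 241 members (4.78% of such anchors), other annotated starts 75 (7.45%), gene bodies 159 (4.68%) and stretches between genes 82 (5.10%). None of these shares was tested. Of members with at least 100 counts both inside the anchor and to other anchors, 176 in all, the contacts inside had the direction of the sum in 170 and the contacts to other anchors in 176. Both parts belong to the sum that the rule used, so their direction is largely fixed by it. On its own, the inside part was separated 4 from 4 in 50 of them and the outside part in 115. In 31 of them both parts were.

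GC content moved with the direction. The median GC content was 43.5% in the higher members (interquartile range 41.6% to 45.6%) and 47.2% in the lower ones (interquartile range 45.0% to 49.9%), against 45.5% in all 11056 anchors. Of the 2770 anchors with the lowest GC content (up to 43.0%), 118 were higher and 28 lower with the D2 allele. Of the 2762 with the highest (from 48.2%), 21 were higher and 122 lower. The libraries themselves differed in this respect. The 2770 anchors of low GC content took 22.3% and 23.6% of the counts of these anchors in D2 and 24.4% and 21.6% in B6-13D2, against 19.8% and 22.5% in B6 and 21.6% and 21.3% in D2-13B6. B6 replicate 1 and B6-13D2 replicate 1 were the extremes, and the alleles overlapped in this share. The part of GC content in the list was not tested beyond the scaling that follows.

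When each library was scaled to equal totals within 20 bins of GC content, a setting added after the values were seen, 557 anchors were again separated, 285 higher and 272 lower. Of these, 416 were members with the same direction, and the rest were anchors outside the list. The counts were then 78 higher and 75 lower at the lowest GC content, and 63 and 69 at the highest. The 24 members named for their gap stayed separated, which their choice as the widest gaps favours. Of the 11 named from gene lists alone, 4 did not. The members as a list therefore depended on how GC content was treated.

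**Figure D2:**
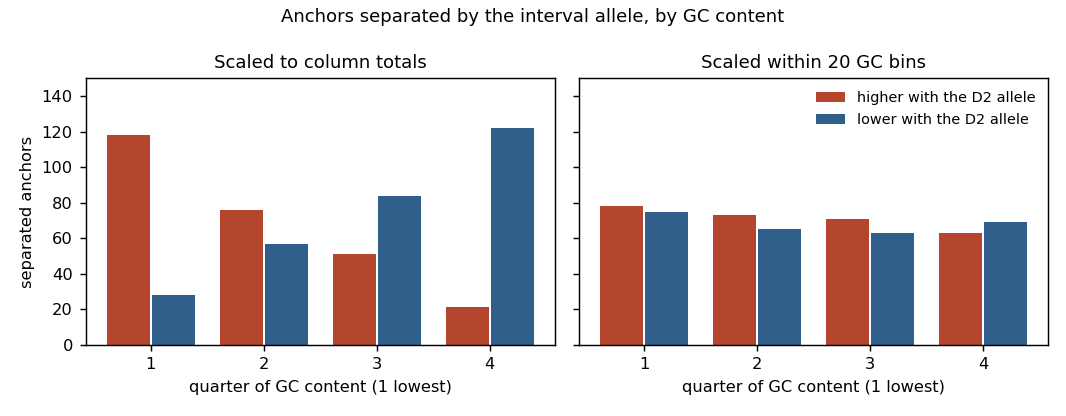
Bars count anchors separated by the interval allele in 4 classes of GC content of nearly equal size (x axis, 1 lowest), higher (red) or lower (blue) with the D2 allele, with levels scaled to column totals (left) or within 20 GC bins (right). On the left the counts run from 118 higher and 28 lower in class 1 to 21 and 122 in class 4, and on the right from 78 and 75 to 63 and 69.

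Of the members that were higher with the D2 allele, the widest gap lay at an anchor of 30 kb across the 3′ end of Aass, a gene of lysine breakdown (chromosome 6, 23065001 to 23095000). It had 193 and 215 CPM in D2 and 149 and 124 CPM in B6-13D2, against 68.1 and 72.3 in B6 and 78.3 and 54.6 in D2-13B6. The mean was 170 ± 41.2 CPM with the D2 allele and 68.3 ± 10.0 with the B6 allele (SD, n = 4 libraries each), a ratio of 2.49. Contacts inside the anchor made up 72.7% of its counts, and the difference was spread over its 6 bins, which held 7.31% to 23.3% of it. Of its loops to other anchors, the one with the most counts spanned 77 kb, at a mean of 10.6 CPM with the D2 allele and 6.64 with the B6 allele.

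An anchor in Fam49b, whose product binds the GTPase RAC1, overlaps the small nuclear RNA gene Gm25628 (chromosome 15, 64020001 to 64030000). It had 89.8 and 88.6 CPM in D2 and 92.8 and 87.9 in B6-13D2, against 56.4 and 52.7 in B6 and 52.4 and 51.4 in D2-13B6. The lines of each allele were nearly level here. Another 3 anchors across Fam49b were members too, in the same direction. The one from 63985001 to 64000000 had 135 and 150 CPM in D2 and 178 and 158 in B6-13D2, against 81.1 and 104 in B6 and 115 and 104 in D2-13B6. The loop between these anchors was at a mean of 35.3 CPM with the D2 allele and 21.8 with the B6 allele. Here and below, the counts of a loop are part of the sums of both its anchors, so joined members are not independent.

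Other higher members lay at gene starts. The anchor at Twistnb, which encodes a subunit of RNA polymerase I (chromosome 12, 33425001 to 33435000), had 40.2 and 34.9 CPM in D2 and 39.6 and 32.0 in B6-13D2. B6 had 22.3 and 21.1 and D2-13B6 had 22.5 and 19.6, with 212 counts in all. The anchor at Ptbp3, an RNA-binding protein of splicing (chromosome 4, 59545001 to 59550000), had 65.7 and 71.2 CPM in D2 and 62.3 and 61.6 in B6-13D2, against 47.0 and 45.2 in B6 and 47.5 and 37.5 in D2-13B6. Both anchors had close levels in the 2 lines of each allele. The anchor at Lpar6, a receptor for lysophosphatidic acid that lies in an intron of the tumour suppressor gene Rb1 (chromosome 14, 73230001 to 73245000), had 150 and 183 CPM in D2 and 189 and 166 in B6-13D2. It had 99.9 and 116 in B6 and 119 and 108 in D2-13B6. Its leading partner, 17 kb away in Rb1, was also a member, and the loop was at 91.7 against 58.3 CPM in the allele means. This loop held 550 of the 1045 counts of the Lpar6 anchor.

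Within gene bodies, the anchor in Adam32, of a family of membrane metalloproteases (chromosome 8, 24895001 to 24925000), had 328 and 383 CPM in D2 and 277 and 239 in B6-13D2. In B6 it had 174 and 181, and in D2-13B6 165 and 182. D2 was higher than B6-13D2 here, as at Aass. The anchor in Cpne9, a copine that binds phospholipids (chromosome 6, 113295001 to 113300000), had 59.0 and 50.8 CPM in D2 and 52.1 and 52.6 in B6-13D2, against 36.4 and 39.2 in B6 and 34.1 and 39.1 in D2-13B6. Its leading partner was the start of Brpf1. The anchor in Zranb3, a DNA translocase that remodels replication forks (chromosome 1, 127995001 to 128005000), had 60.3 and 49.4 CPM in D2 and 80.4 and 69.0 in B6-13D2. It had 34.1 and 37.7 in B6 and 37.5 and 39.1 in D2-13B6, so here B6-13D2 was the higher of the lines with the D2 allele.

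The remaining 4 of the 12 higher members named for their gap lay between genes. The one on chromosome 4 (22140001 to 22150000) had 34.9 and 45.0 CPM in D2 and 48.7 and 32.9 in B6-13D2, against 18.8 and 21.1 in B6 and 21.6 and 16.3 in D2-13B6. The one on chromosome 5 (14305001 to 14325000) had 63.0 and 50.8 CPM in D2 and 61.1 and 46.8 in B6-13D2, against 25.8 and 34.6 in B6 and 27.5 and 25.3 in D2-13B6. These are low levels, with 216 and 302 counts over all libraries. On chromosome 9 (100580001 to 100585000), 20 kb from an anchor in the cohesin gene Stag1 that was also a member, the allele means were 57.6 ± 3.06 and 38.1 ± 3.05 CPM (SD, n = 4 libraries each). On chromosome 12 (80150001 to 80155000), with its leading partner in Actn1, they were 41.3 ± 1.51 and 26.2 ± 4.95 CPM (SD, n = 4 libraries each).

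**Figure D3:**
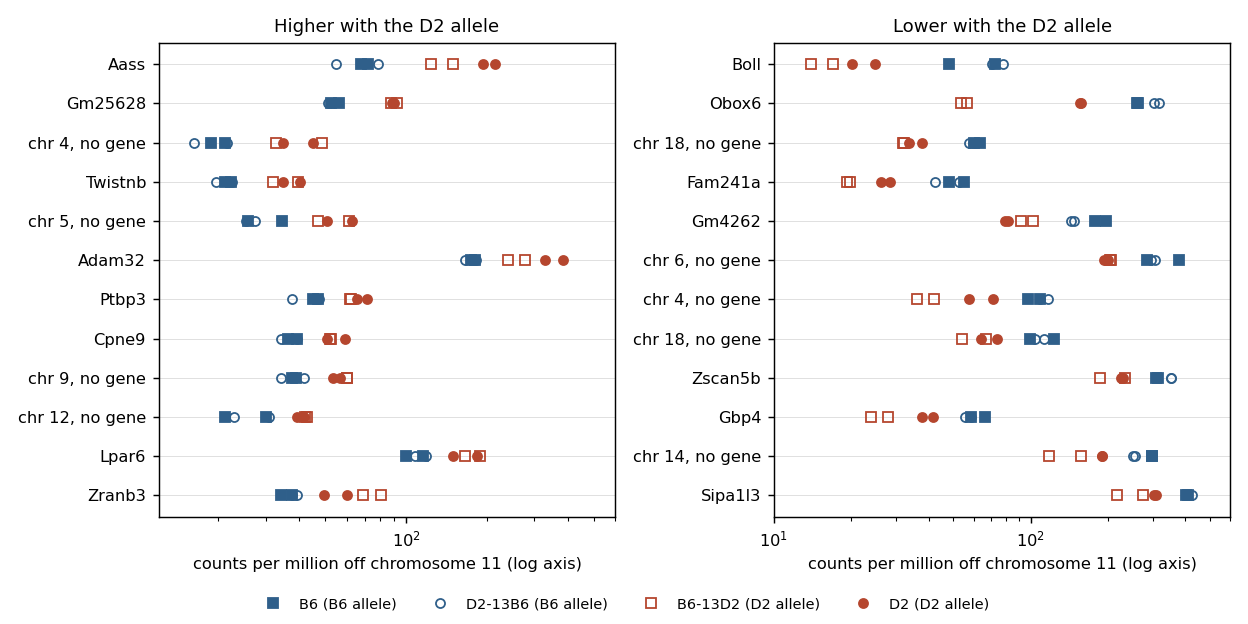
Points are the 8 libraries (squares, C57BL/6J background; circles, DBA/2J background; filled, parental; open, congenic; red, D2 allele; blue, B6 allele) at the 24 members named for the gap between alleles, in CPM on a log axis. Red points lie above blue ones on the left and below them on the right in every row, as the rule requires; the widest gap on the right is at Boll, with 14.0 to 24.7 CPM against 48.2 to 78.3.

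Among the lower members, the widest gap lay in Boll, a germline RNA-binding protein of the DAZ family (chromosome 1, 55350001 to 55355000). It had 20.1 and 24.7 CPM in D2 and 17.0 and 14.0 in B6-13D2, against 48.2 and 72.3 in B6 and 78.3 and 70.9 in D2-13B6. The allele means were 18.9 ± 4.58 and 67.4 ± 13.2 CPM (SD, n = 4 libraries each), a ratio of 3.56. The anchor at the start of Boll (55360001 to 55365000) was a member as well, at 28.2 and 18.9 CPM in D2 and 19.2 and 14.0 in B6-13D2, against 48.2 and 45.2 in B6 and 59.9 and 44.0 in D2-13B6. The loop between these anchors was at 5.11 CPM with the D2 allele and 22.7 with the B6 allele in the means. The member at the 3′ side of the gene (55275001 to 55285000) had 44.2 and 47.9 CPM in D2 and 30.6 and 34.5 in B6-13D2, against 65.8 and 66.3 in B6 and 79.9 and 78.3 in D2-13B6. In all 3 anchors across Boll the mean was lowest in B6-13D2 and highest in D2-13B6.

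The anchor of 40 kb at Obox6, a homeobox gene of the oocyte and early embryo, also reaches into Crx, a homeobox gene of photoreceptors (chromosome 7, 15830001 to 15870000). It had 157 and 155 CPM in D2, 56.6 and 53.4 in B6-13D2, 261 and 259 in B6, and 315 and 302 in D2-13B6. The replicates lay close together, and the 4 lines formed 4 levels. The ratio of B6 to D2 allele means was 2.69. Each of its 8 bins held at least 8.23% of the difference. The leading loop, to the start of Crxos 45 kb away, held 147 counts with the D2 allele and 468 with the B6 allele, at means of 45.7 and 111 CPM.

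In Litaf, a gene of the endosomal and lysosomal membrane that is induced by lipopolysaccharide, the anchor at the non-coding Gm4262 (chromosome 16, 11005001 to 11020000) had 79.1 and 81.3 CPM in D2 and 102 and 92.0 in B6-13D2. It had 197 and 178 in B6 and 144 and 147 in D2-13B6. Its leading partners, in Litaf and at its start, were members with the same direction. The loop to the start was at 19.9 CPM with the D2 allele and 39.1 with the B6 allele. The anchor at the 3′ end of Fam241a (chromosome 3, 127865001 to 127870000) had 28.2 and 26.1 CPM in D2 and 19.2 and 19.7 in B6-13D2, against 55.2 and 48.2 in B6 and 52.4 and 42.4 in D2-13B6.

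The anchor at Zscan5b, which encodes a zinc finger protein with a SCAN domain, also covers Galp, a neuropeptide gene (chromosome 7, 6200001 to 6225000). It had 228 and 225 CPM in D2 and 187 and 232 in B6-13D2, against 309 and 312 in B6 and 352 and 351 in D2-13B6. The anchor at the interferon-inducible genes Gbp4, Gbp8 and Gbp9 (chromosome 5, 105135001 to 105150000) had 41.6 and 37.8 CPM in D2 and 23.8 and 27.9 in B6-13D2. It had 58.7 and 66.3 in B6 and 58.3 and 55.5 in D2-13B6. At Gbp4 the B6-13D2 libraries were the lowest. The anchor in Sipa1l3, of a family of Rap GTPase-activating proteins (chromosome 7, 29440001 to 29460000), had 303 and 309 CPM in D2 and 216 and 274 in B6-13D2, against 410 and 401 in B6 and 408 and 426 in D2-13B6.

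The other 5 lower members named for their gap lay between genes of GENCODE M21, although the one on chromosome 14 holds the RefSeq start of Gm33173. RefSeq starts were not searched for the 2 on chromosome 18. Upstream of Msantd3 (chromosome 4, 48505001 to 48520000), the levels were 57.6 and 71.2 CPM in D2, 41.9 and 36.2 in B6-13D2, 109 and 97.9 in B6 and 117 and 109 in D2-13B6. Next to Copg1 (chromosome 6, 87865001 to 87880000), they were 200 and 193 CPM in D2, 205 and 204 in B6-13D2, 378 and 285 in B6 and 293 and 305 in D2-13B6. Its leading loop ran to the anchor at the starts of Cnbp and Isy1, also a member, at 91.9 CPM with the D2 allele and 166 with the B6 allele. On chromosome 14 (120845001 to 120870000), 47 kb from the start of the importin gene Ipo5, they were 189 and 190 CPM in D2, 157 and 118 in B6-13D2, 298 and 297 in B6 and 250 and 254 in D2-13B6. The 2 on chromosome 18 lay near Fem1c and Eif1a (46550001 to 46555000), with means of 33.8 ± 2.78 and 60.0 ± 2.41 CPM, and near Galnt1 (24185001 to 24190000), with 64.7 ± 8.09 and 110 ± 10.5 CPM (D2 and B6 allele, SD, n = 4 libraries each).

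Lists of genes whose products work with KRAB zinc finger proteins or mark the state of these cells were chosen with earlier results of these data known. The heterochromatin list names the corepressor genes Trim28 and Setdb1 and others of H3K9 and DNA methylation. Of its 27 anchors that met the conditions, 0 were higher and 1 was lower, which is 3.70% beside 5.04% of all anchors. That one lay at Dnmt3a, a de novo DNA methyltransferase (chromosome 12, 3885001 to 3895000). It had 38.9 and 26.1 CPM in D2 and 28.3 and 40.3 in B6-13D2, against 59.9 and 42.2 in B6 and 53.3 and 43.2 in D2-13B6, so the lowest B6-allele library and the highest D2-allele library differed by little. Of 25 anchors of naive pluripotency genes, 1 (4.00%) was higher, at Zfp42, the pluripotency marker Rex1. Its allele means were 125 ± 14.2 and 104 ± 2.52 CPM (SD, n = 4 libraries each), and it was no longer separated after scaling within GC bins. Of 3 anchors on the list of germline genes, 0 were members, but the list does not hold Boll. The list of genes of 2-cell-like cells had 1 such anchor, the one at Obox6.

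Zinc finger genes had 201 anchors that met the conditions, of which 5 were higher and 6 lower. That is 5.47% of them, beside 5.04% of all anchors. The higher ones lay at Zfp42, Zfp239, Zfp266, Zfp292 and Zscan21, and the lower ones at Zscan5b, Zfp217, Zfp740, Zfp768, Zfp839 (shared with Mok) and Zfp7 with Zfp251. The anchor at Zfp292 had the widest gap of the higher ones, with 432 and 443 CPM in D2 and 482 and 421 in B6-13D2, against 317 and 371 in B6 and 327 and 326 in D2-13B6. Its loop to Cga was at 131 CPM with the D2 allele and 83.6 with the B6 allele. At Zfp217, the levels were 459 and 410 CPM in D2 and 469 and 457 in B6-13D2, against 545 and 551 in B6 and 500 and 530 in D2-13B6. At Zfp740, they were 170 and 180 CPM in D2 and 148 and 205 in B6-13D2, against 258 and 206 in B6 and 219 and 237 in D2-13B6, so that the alleles nearly met at 205 and 206. The ratio of allele means ran from 1.09 at Zfp839 and Zfp7 to 1.33 at Zfp292 among the zinc finger members other than Zscan5b, where it was 1.52. The anchors at Zfp42, Zfp839, Zfp7 and Zfp239 were not separated after scaling within GC bins.

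With members of 1 direction joined where their midpoints were within 1 Mb, the 557 fell into 344 runs, of which 227 held 1 member, 66 held 2 and 51 held 3 or more. Of 251 pairs of neighbouring members within 1 Mb, 207 had the same direction. A loop joined 439 members to another member, and of the 570 loops between members, 439 joined members of 1 direction. Neighbours that share a loop also share its counts, so they are not independent. The spacing of all anchors was not set against these counts.

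The genes named from these runs were picked after their values were seen. The longest runs held 11 lower members each. One lay on chromosome 17 (26490001 to 29650000), where 68 anchors met the conditions, from Dusp1 to the ubiquitin ligase gene Rnf8. Its anchor in Rnf8 (29625001 to 29650000) had 276 and 231 CPM in D2 and 354 and 380 in B6-13D2, against 578 and 494 in B6 and 403 and 411 in D2-13B6. The other lay on chromosome 7 (28645001 to 30370000), among 55 such anchors, and held 6 anchors across Sipa1l3. Within its span lay a member of the opposite direction, at the sperm ion channel gene Catsperg1, with 88.6 to 107 CPM over the D2-allele libraries and 57.4 to 82.2 over the B6-allele libraries. Anchors of both directions can thus lie within one stretch.

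The longest run of higher members held 7 of 18 anchors on chromosome 6 (47170001 to 47825000). It ran from Cntnap2, a neuronal adhesion gene, past Ezh2, which encodes the methyltransferase for lysine 27 of histone H3, to Pdia4, a protein disulfide isomerase. The anchor at the 3′ side of Cntnap2 (47280001 to 47300000) had 273 and 279 CPM in D2 and 344 and 299 in B6-13D2, against 189 and 252 in B6 and 193 and 183 in D2-13B6. At Ezh2 (47590001 to 47605000), the levels were 81.8 and 106 CPM in D2, 91.7 and 82.2 in B6-13D2, 75.2 and 70.8 in B6 and 79.1 and 69.3 in D2-13B6. At Pdia4 (47810001 to 47825000), they were 122 and 113 CPM in D2, 164 and 132 in B6-13D2, 101 and 104 in B6 and 92.4 and 88.1 in D2-13B6. The gap at Ezh2 was narrow beside those in Cntnap2 and at Pdia4.

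Runs differed in how much of their span they filled. The run of 8 lower members on chromosome 7 (79950001 to 82215000) lay among 47 anchors that met the conditions, that of 6 lower members on chromosome 19 (4905001 to 7420000) among 64. Runs of 5 lower members lay among 41 such anchors on chromosome 8, 37 on chromosome 4 and 13 on chromosome 10. The densest of those with 5 or more members are described next. On chromosome 16 (16355001 to 16570000), 5 of 6 anchors were higher, from Dnm1l, a GTPase of mitochondrial fission, to Fgd4, an exchange factor for the GTPase CDC42. The anchor at Dnm1l had 83.1 and 103 CPM in D2 and 83.8 and 65.7 in B6-13D2, against 51.7 and 55.7 in B6 and 61.6 and 50.6 in D2-13B6. At the start of Fgd4 the alleles nearly met, with 121 and 126 CPM in D2 and 131 and 105 in B6-13D2 against 88.1 and 101 in B6 and 105 and 104 in D2-13B6. On chromosome 18 (82750001 to 82940000), 6 of 7 anchors were lower, with the highest levels at 82750001 to 82790000. That anchor had 424 and 431 CPM in D2 and 426 and 465 in B6-13D2, against 623 and 584 in B6 and 690 and 698 in D2-13B6. The run ended in Zfp516, a zinc finger gene, where the levels were 67.0 and 78.4 CPM in D2, 58.9 and 68.2 in B6-13D2, 117 and 113 in B6 and 87.4 and 96.2 in D2-13B6.

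By chromosome, the share of anchors that were members ran from 2.97% (13 of 438) on chromosome 12 to 7.93% (33 of 416) on chromosome 18. Chromosome 1 had 24 higher and 10 lower members, while chromosome 7 had 16 higher and 38 lower. On both, the level of the whole chromosome moved the same way, with a ratio of D2-allele to B6-allele means of 1.04 on chromosome 1 and 0.959 on chromosome 7. It was 0.964 on chromosome 17, which held 6 higher and 16 lower members, and 0.970 on chromosome 19, with 8 and 18. Chromosomes 8 and 4 had 0.982 and 0.989, with 9 and 21 and with 19 and 32. On chromosomes 6 and 12 the ratio was 1.01, with 20 and 12 and with 7 and 6. Chromosome 14 had 1.03 with 13 of each direction, and chromosomes 2 and 16 had 1.00. Other chromosomes, with ratios of 0.990 to 1.01, went the opposite way. The ratio was 1.01 on chromosomes 3 and 18, with 9 higher and 18 lower members and with 12 and 21. On chromosomes 5 and 9 it was 0.994 and 0.990, with 25 and 13 and with 18 and 13. Chromosomes 10 and 15 had 0.994 and 0.998, with 18 and 14 and with 20 and 17. Scaled to the totals of the anchor's own chromosome, 564 anchors were separated, 286 higher and 278 lower, of which 488 were members. Each chromosome with anchors that met the conditions held members of both directions.

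**Figure D4:**
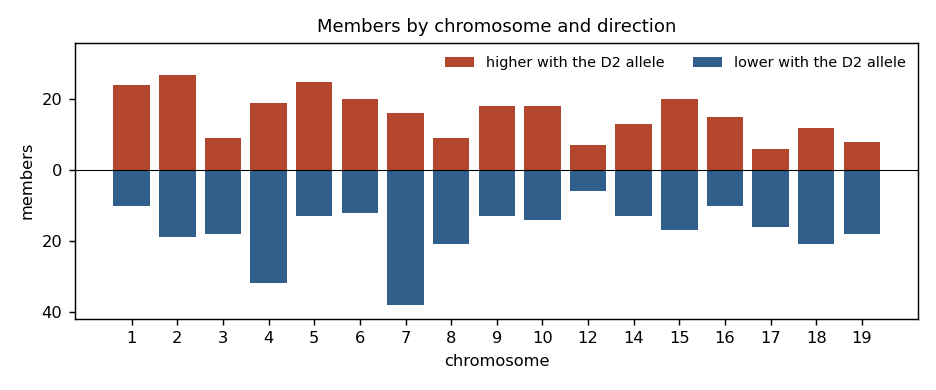
Bars count members by chromosome, higher (red, upward) or lower (blue, downward) with the D2 allele. Chromosome 2 has the most higher members, at 27, and chromosome 7 the most lower ones, at 38.

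The tests below are on contrasts other than the one that chose the members. All 21211 anchors that reached 10 counts in 2 or more libraries entered one fit of edgeR's quasi-likelihood test, with Benjamini-Hochberg adjustment over all of them and a false discovery rate (FDR) of 0.05. The background contrast sets the DBA/2J background against the C57BL/6J background, averaged over both alleles. It called 24.8% of all tested anchors, 11.9% higher and 13.0% lower in the DBA/2J background. Of the 557 members it called 33, with 12 higher and 21 lower. Since the rule keeps out anchors whose background difference exceeds the allele difference, nothing is read from this low share.

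The members with the smallest FDR for background were Obox6, the anchor in Rnf8 and Dnah12. At Obox6 the log2 fold change was 0.85 (SE 0.11, edgeR FDR 5.39e-10), so the DBA/2J background was higher while the D2 allele of the interval was lower. The anchor in Rnf8, lower with the D2 allele, was lower in the DBA/2J background too, by -0.50 (SE 0.09, edgeR FDR 2.36e-06). Dnah12, an axonemal dynein gene (chromosome 14, 26855001 to 26870000), was higher with the D2 allele, at 160 and 157 CPM in D2 and 277 and 256 in B6-13D2 against 125 and 146 in B6 and 101 and 103 in D2-13B6. Its log2 fold change for background was -0.60 (SE 0.11, edgeR FDR 3.59e-06). Allele and background differed in sign at Obox6 and Dnah12 and shared it at Rnf8.

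Further members called for background were Tmeff1, Dmtn and Slc35g1. At Tmeff1, a transmembrane protein gene near the Msantd3 member (chromosome 4, 48570001 to 48590000), the levels were 122 and 142 CPM in D2, 72.4 and 76.4 in B6-13D2, 153 and 146 in B6 and 196 and 201 in D2-13B6. The background difference was 0.58 (log2, SE 0.11, edgeR FDR 2.30e-05). At Dmtn, an actin-bundling protein gene, it was -0.57 (SE 0.11, edgeR FDR 2.20e-05), and at Slc35g1, a solute carrier gene, 0.47 (SE 0.09, edgeR FDR 3.56e-05). At Fads1, a fatty acid desaturase gene, it was 0.38 (SE 0.09, edgeR FDR 2.68e-04). Of the 24 members named for their gap, the anchors at Gm4262 (-0.35, SE 0.12, edgeR FDR 0.0187) and upstream of Msantd3 (0.40, SE 0.14, edgeR FDR 0.0311) were called besides Obox6. Over 15 alternative settings the edgeR or DESeq2 FDR ran from 0.00936 to 0.162 at Gm4262, called in 8, and from 0.0234 to 0.207 upstream of Msantd3, called in 10.

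The members named here from the calls were picked after their values were seen. Of the 33 background calls, 10 were called under each of the 15 settings, namely Obox6, Dnah12, Tmeff1, Dmtn, Slc35g1, Fads1, Kif11, Mypn, Gm15962 and the anchor in Rnf8. DESeq2 called 10 of the members in all. Without D2-13B6 replicate 2 the count was 18, of which 17 were among the 33, and without D2 replicate 2 it was 19, of which 18 were.

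The interaction contrast asks whether the allele difference was of equal size in both backgrounds. It called 4.79% of all tested anchors, 1.06% higher and 3.73% lower in D2 against D2-13B6 than in B6-13D2 against B6. It called 10 of the 557 members, 3 higher and 7 lower, while 80 members had an unadjusted p below 0.05, as had 2063 of the 11056 anchors that met the conditions. This contrast sets the parental against the congenic lines, and the rule keeps out anchors where that difference exceeds the allele difference, so nothing is read from the low shares. The comparison of B6-13D2 with B6 and that of D2 with D2-13B6 share no library. On the scale of the fit, with TMM factors, 261 of 266 higher and 285 of 291 lower members had the same sign in both, which the rule nearly fixes. The median fold changes were 0.52 and 0.29 (log2, B6-13D2 over B6, and D2 over D2-13B6) in the higher members and -0.36 and -0.43 in the lower ones. With library totals alone in place of TMM, they were 0.41 and 0.43 and -0.47 and -0.28, so which background had the larger difference turned with the scaling. That scaling moved the median interaction of all anchors to 0.29, against 0.03 with TMM. In D2-13B6, 13.9% and 14.0% of all counts lay on chromosome 11, against 10.0% to 10.6% in the other 6 libraries, and the part of this in the scaling was not tested.

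**Figure D5:**
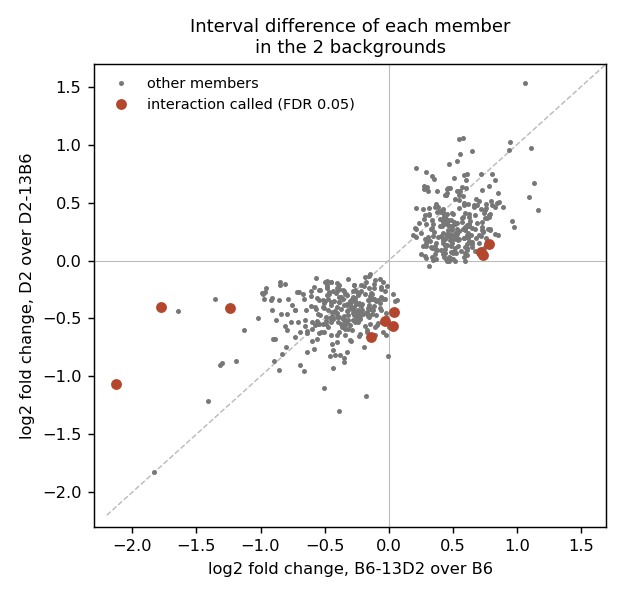
Each point is 1 of the 557 members, with the log2 fold change (edgeR, TMM factors) of B6-13D2 over B6 on the x axis and of D2 over D2-13B6 on the y axis; the dashed line marks equal values. The 10 members called for the interaction are in red, with Obox6 at -2.13 and -1.07.

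At Obox6 the difference was the larger in the C57BL/6J background, at -2.13 (log2, SE 0.16) against -1.07 (SE 0.14) in the DBA/2J background, an interaction of 1.06 (SE 0.22, edgeR FDR 6.82e-04). The call held in 14 of 15 alternatives and was lost when contacts inside the anchor were left out (edgeR FDR 0.122). Over the 15 settings the FDR ran from 1.78e-05 to that value. Kif11, a kinesin of the mitotic spindle (chromosome 19, 37375001 to 37380000), had 219 and 221 CPM in B6 and 75.8 and 93.7 in B6-13D2. In the DBA/2J background the levels were 81.8 and 91.5 CPM for D2 and 112 and 104 for D2-13B6. B6 stood far above the other lines, and the interaction was 0.83 (SE 0.24, edgeR FDR 0.0237). The anchor in Hmcn2, a gene of the extracellular matrix (chromosome 2, 31325001 to 31335000), had 55.2 and 58.8 CPM in B6, 12.5 and 17.3 in B6-13D2, 34.9 and 29.0 in D2 and 43.3 and 36.7 in D2-13B6, with an interaction of 1.37 (SE 0.41, edgeR FDR 0.0303). In these 3 members the fall with the D2 allele was the larger in the C57BL/6J background.

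The other 7 interaction calls had a negative sign. At Hsph1, a heat shock protein gene (chromosome 5, 149635001 to 149665000), the levels were 276 and 259 CPM in B6, 370 and 450 in B6-13D2, 397 and 391 in D2 and 358 and 358 in D2-13B6, so only B6 was low (interaction -0.69, SE 0.17, edgeR FDR 0.00791). At Cbx7, a Polycomb protein gene (chromosome 15, 79920001 to 79975000), they were 781 and 786 CPM in B6, 720 and 767 in B6-13D2, 778 and 771 in D2 and 981 and 1007 in D2-13B6. Here D2-13B6 alone was high, and the gap between alleles came down to a few CPM between D2 and B6 (interaction -0.49, SE 0.15, edgeR FDR 0.0381). D2-13B6 was also the highest line at Gm24931, at 902 and 915 CPM against 642 to 719 in the other 6 libraries, at 2410024N13Rik, and at an anchor between genes on chromosome 18. At Skap2, an adaptor protein gene, B6 was the lowest, with 190 and 241 CPM against 265 to 362 in the other 6 libraries, and the same held for the anchor between genes on chromosome 10. Each of these 7 calls was lost with library totals alone, and none of the 10 was called under every alternative. Without D2 replicate 1 or without D2-13B6 replicate 2, 1 member was called.

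Signal at markers of embryonic stem cells, summed over the list, was found in all lines. Anchors were found at the starts of all 8 of the stem cell markers Pou5f1, Sox2, Nanog, Esrrb, Zfp42, Klf4, Tfcp2l1 and Dppa3, at a summed level of 3858 to 4964 CPM per library. Of 5 markers of mesoderm 0 had an anchor. Of 5 markers of primitive endoderm 1 had one, Pdgfra at 4.93 to 14.1 CPM, with Gata4, Gata6, Sox17 and Sox7 without. Neural ectoderm and trophoblast each had 1 of 4, Nes at 21.1 to 36.3 CPM and Cdx2 at 9.04 to 15.8. Pax6 and Elf5 were among those without. Fibroblast markers had 3 of 5, at 51.8 to 89.8 CPM with the D2 allele and 74.9 to 90.5 with the B6 allele. Library totals ran from 737955 to 1425304 counts, and the congenic lines were the deepest. The members held 54583 to 102142 counts per library.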

How the data were processed

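The authors deposited raw counts of read pairs for each pair of anchors, whole numbers that are not normalized, in one table of the 8 libraries and in one file per library. The submitters' processing notes name BWA 0.7.18, SAMtools 1.19.2 and edgeR 3.34.1 and the mm10 build, with no roles given; the loop caller is not given in the sources used here. Counts were summed per anchor, scaled to the total off chromosome 11 and divided by the rule of the opening paragraph. Gene positions came from GENCODE M21 and sequence from RefSeq GRCm38.p6. Against the RefSeq chromosome lengths, 0 anchors ran past an end.

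The background and interaction contrasts were tested with edgeR 4.0.16 (R 4.3.3), 1 mean per line and TMM factors. The background contrast alone was also run on simulated data, whose values are not given here. DESeq2 1.42.0 was an alternative. The members named were the first 12 on each side by the log2 gap between alleles (pseudocount of 1 CPM), none within 1 Mb of another named on its side, plus members within 5 kb of a start of a listed gene. Members and lists were chosen with earlier results of these data known. Replicates differed by more than sampling noise (chi-square over degrees of freedom 1.11 to 1.60), so none were merged. Counts carry no molecular identifiers. All value columns matched a sample (0 unmatched). Alternatives covered the count minimum, scaling, filters, contacts inside anchors, the tool, a replicate block and each library left out. Scaling within GC bins, 1 member per run and contacts inside anchors left out of the tests were added after seeing the data.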

Additional observations from a re-analysis of the deposited data

Results flagged for a closer look

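The allele difference was not of equal size in both backgrounds in 10 of the 557 members (1.80%), by the interaction term of the edgeR fit at an FDR of 0.05, which called 4.79% of all tested anchors. The rule that chose the members holds this difference below the allele difference, so nothing is read from the low share. The interaction, D2 minus D2-13B6 against B6-13D2 minus B6 on the log2 scale, was 1.37 in Hmcn2, 1.06 at Obox6 and 0.83 at Kif11. It was -0.69 at Hsph1, -0.64 at Skap2, -0.60 at Gm24931, -0.49 at 2410024N13Rik and -0.49 at Cbx7. It was -0.65 at an anchor between genes on chromosome 10 and -0.52 at one on chromosome 18. The call at Obox6 held in 14 of 15 alternatives and that at Gm24931 in 12, while the other 8 held in 4 to 10. All 7 negative calls were lost with library totals alone in place of TMM factors. With 2 libraries per line, no library could be set apart from its group.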

How the results depend on the processing

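The number of anchors separated by the allele stayed within 1.5 times 557 under the other count minimums and scalings. With chromosome 11 in the column totals, 328 of 550 were higher (59.6%, against 47.8%), and with TMM factors 390 of 536 were shared. Contacts inside anchors alone separated 97 of the 1889 anchors that met the conditions on them (5.13%, beside 5.04% in the main setting). Taking 1 member per run of neighbours, added after seeing the data, gives 344. Leaving out 1 library, which makes separation easier, gave 720 to 1163 anchors, with 1163 without B6 replicate 2, 1042 without D2 replicate 1, 913 without B6-13D2 replicate 2 and 846 without D2 replicate 2.

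Background calls at members fell from 33 to 10 with DESeq2 and ranged from 18 to 35 with 1 library left out. Interaction calls went from 10 to 21 without a filter, to 5 with contacts inside anchors left out (added after seeing the data) and to 11 with library totals alone, all of them higher and 3 shared; with 1 library left out they ranged from 1 (without D2 replicate 1 or D2-13B6 replicate 2) to 16 (without B6 replicate 1), with 4 without D2 replicate 2 or D2-13B6 replicate 1. Where a line keeps 1 library, it is assumed to vary like the others. The replicate block left 25 background and 6 interaction calls. Same-numbered libraries did not deviate together (correlations -0.16 to 0.03), so the numbers do not pair them.

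The interval difference of the named members was not compared under DESeq2 or without a filter. All 35 kept its sign in each other alternative. The rule fixes this where 1 library is left out, and it is no sign of stability. Of 455 values of the difference, 447 moved by less than 1 standard error and 8 by more. Low anchors such as Twistnb, at 212 counts, limit the precision.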
